A study of Homo sapiens with 18 samples.

Results

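The 10 genes described here, DUSP4, DUSP5, DUSP6, SPRY1, SPRY2, SPRY4, SPRED1, SPRED2, ETV4 and ETV5, are transcripts that follow signalling by receptor tyrosine kinases and ERK. They were taken by symbol from a table of 61487 gene identifiers, all 10 were found, and all 10 passed the filter on low counts. RNA was counted in 18 libraries of MSC-hTERT, a human mesenchymal stem cell line made immortal with telomerase (hTERT). The libraries fall into 6 groups of 3 by the label for the introduced construct: pMSCV (the name of a retroviral vector, read here as the vector control), SRF, and the fusions SRF-RELA, SRF-PDGFRB, SRF-ICA1L and SRF-FOXO1. SRF, the serum response factor, FOXO1 and RELA are transcription factors, ICA1L is a BAR domain protein, and PDGFRB is a receptor tyrosine kinase, the only one among the 4 partners. Every group was grown in the same medium, with 10% serum, FGF-2 at 1 ng/ml, heparin, ascorbic acid and antibiotics, so the ligand FGF-2 was present in control and construct cells alike. The labels name no time point, no clone and no promoter, and they do not say whether the 3 libraries of a group came from separate cultures, so p-values measure the spread between libraries, which may be technical.

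Growth factors such as FGF and PDGF bind receptor tyrosine kinases, which act through RAS, RAF and MEK to phosphorylate the kinase ERK. Active ERK raises transcription of its own inhibitors, so the RNA of these inhibitors is widely read as a sign of how much signal passes through the pathway. DUSP4, DUSP5 and DUSP6 are phosphatases that remove phosphate from ERK, DUSP6 in the cytoplasm and DUSP4 and DUSP5 in the nucleus. Sprouty proteins (SPRY1, SPRY2, SPRY4) and Spred proteins (SPRED1, SPRED2) dampen the step between receptor and RAF, SPRED1 by bringing the RAS inhibitor neurofibromin to the membrane. ETV4 and ETV5 are ETS transcription factors that are induced downstream of FGF receptors. SRF itself binds a motif called the CArG box together with ETS cofactors that ERK phosphorylates, or with MRTF cofactors that follow actin, and immediate early genes such as FOS and EGR1 are its best known targets of the first kind.

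Promoters are shown for 4 members, since DUSP6 and SPRY2 were low together in libraries numbered 2 and SPRY4 and SPRED1 were low together in SRF-ICA1L. RefSeq promoter windows of 300 bases, from 250 bases before to 50 bases after a transcript start on GRCh38.p14, were used for 6 of the 10 members, and are printed 5′ to 3′ on the strand of the gene. Capitals mark the only match in these 4 windows to the motifs searched.
DUSP6, chr12:89352452-89352751, minus strand: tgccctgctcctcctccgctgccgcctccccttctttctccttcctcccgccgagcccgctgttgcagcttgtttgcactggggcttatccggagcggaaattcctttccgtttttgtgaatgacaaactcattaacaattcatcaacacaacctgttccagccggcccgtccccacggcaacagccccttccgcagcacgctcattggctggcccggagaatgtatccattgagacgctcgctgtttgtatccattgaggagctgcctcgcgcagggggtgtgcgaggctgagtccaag
SPRY2, chr13:80341077-80341376, minus strand: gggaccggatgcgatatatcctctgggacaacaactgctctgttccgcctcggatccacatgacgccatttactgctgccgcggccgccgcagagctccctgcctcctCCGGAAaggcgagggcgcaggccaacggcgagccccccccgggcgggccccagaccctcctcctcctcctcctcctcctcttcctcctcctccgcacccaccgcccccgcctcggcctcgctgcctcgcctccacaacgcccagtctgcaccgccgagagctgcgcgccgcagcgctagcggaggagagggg
SPRY4, chr5:142324198-142324497, minus strand: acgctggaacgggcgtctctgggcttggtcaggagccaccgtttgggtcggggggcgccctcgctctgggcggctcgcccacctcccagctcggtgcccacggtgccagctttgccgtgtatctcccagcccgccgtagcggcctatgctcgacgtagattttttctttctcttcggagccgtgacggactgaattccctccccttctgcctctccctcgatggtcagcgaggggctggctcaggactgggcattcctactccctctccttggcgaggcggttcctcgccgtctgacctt
SPRED1, chr15:38252586-38252885, plus strand: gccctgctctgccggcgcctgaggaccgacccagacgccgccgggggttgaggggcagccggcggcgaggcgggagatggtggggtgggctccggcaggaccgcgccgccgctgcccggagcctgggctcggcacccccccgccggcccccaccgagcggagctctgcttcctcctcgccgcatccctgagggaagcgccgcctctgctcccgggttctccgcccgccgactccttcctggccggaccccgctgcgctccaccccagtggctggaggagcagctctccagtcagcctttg
The capitals in SPRY2 are CCGGAA, a core of ETS family sites, which 17.2% of 35116 RefSeq promoter windows of this length hold on either strand. Both strands were also searched for the CArG box, held by 1.29% of all windows, for GGAAGT, an ETS core that can overlap CCGGAA (22.8%), for TGANTCA, bound by AP-1 (7.71%), and for TGACGTCA, the cyclic AMP response element (1.85%). In the other windows, SPRY1 held CCGGAA once, another SPRY2 start held GGAAGT once on the reverse strand, and 1 of the 2 SPRED2 starts held 2 matches to TGANTCA. None of the 10 windows of these 6 members held a CArG box, which says little where 1.29% of all windows hold one. No window was used for DUSP4, DUSP5, ETV4 and ETV5, so nothing is said of their promoters.

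Library totals ran from 19362319 to 29806771 counts. The construct genes were counted first, since they check the labels: the level of SRF was 945 ± 236 CPM (SD, n = 3) in SRF, against 60.96 ± 3.56 CPM in pMSCV, where CPM is a gene's counts divided by all counts of its library, on the usual CPM scale. ICA1L and RELA were higher in the libraries labelled with them. PDGFRB was at 929.7, 526 and 673 CPM in SRF-PDGFRB, above all 3 libraries of pMSCV, but its range overlapped that of SRF, where replicate 1 was at 621 CPM. Replicate 2 of SRF-PDGFRB had the lowest PDGFRB and the lowest SRF (160 CPM) of its group, and the part of this in later comparisons was not tested. FOXO1 was at 9.79 ± 3.99 CPM in libraries labelled SRF-FOXO1 and 12.6 ± 4.27 CPM in pMSCV, so its level did not check that label. SRF was higher in those libraries than in pMSCV, but its level does not name the fusion partner. Of the markers, all 5 of the mesenchymal list (THY1, NT5E, ENG, VIM, COL1A1) were present in every library, with a summed level of 8760 to 23309 CPM. The 2 epithelial markers summed to 0 to 1.41 CPM and the 2 endothelial markers to 5.05 to 28.0 CPM, nearly all of it PECAM1. In bulk RNA, fewer cells that make a transcript and less of it in each cell cannot be told apart.

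Per length of exon, DUSP6 was the most abundant of the 10 genes and DUSP4 the least. The median level over the 18 libraries was 41.7 CPM per kb for DUSP6, 17.4 for SPRED2, 13.5 for SPRED1, 12.5 for DUSP5, 11.9 for ETV4, 10.1 for ETV5, 6.62 for SPRY2, 3.81 for SPRY4, 2.16 for SPRY1 and 0.169 for DUSP4. DUSP4 rested on 12 to 108 counts per library and each other member on at least 109. On the CPM scale, the highest library was 9.23 times the lowest for DUSP4, 4.85 times for DUSP6, 4.45 times for SPRY1, 4.39 times for SPRY4 and 4.30 times for DUSP5, but only 1.62 times for ETV5 and 1.61 times for SPRED2. The plot of levels by library shows that DUSP5 and SPRY2 keep the same order of replicate numbers in all 6 groups.

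**Figure D1:**
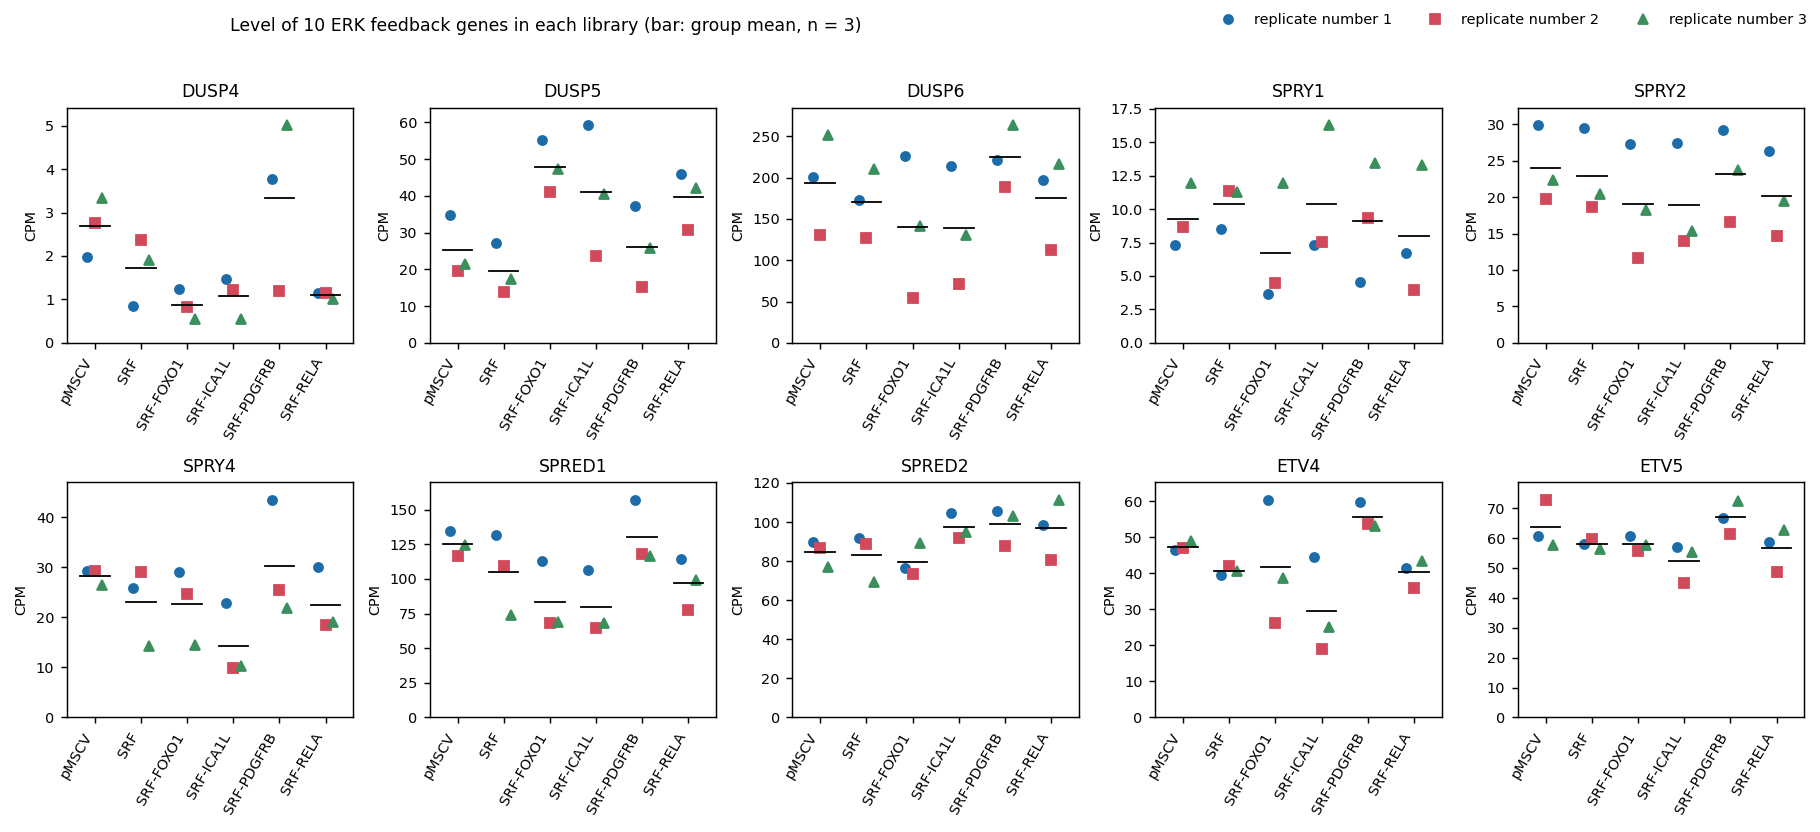
Level in CPM of each of the 10 genes (1 panel each, linear axis from 0) in each library, by group, with colour and shape for the replicate number and a bar for the mean of 3 libraries. SPRY2 is highest in number 1 in all 6 groups and DUSP6 is lowest in number 2 in all 6, while DUSP5 is higher on average in SRF-RELA, SRF-ICA1L and SRF-FOXO1 than in pMSCV, SRF and SRF-PDGFRB.

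The groups were compared with edgeR's quasi-likelihood test on the counts of all 18544 genes that passed the filter, with Benjamini-Hochberg adjustment over those genes and a call at an adjusted p under 0.05. Without the replicate number in the fit, 0 of the 10 members were called in any comparison of groups. Against pMSCV the share of all tested genes called was 0.0270% for SRF, 0.928% for SRF-FOXO1, 0.469% for SRF-ICA1L, 0.0324% for SRF-PDGFRB and 0.183% for SRF-RELA. At an unadjusted p under 0.05 the members counted 0, 3, 6, 0 and 1 in the same order, and DESeq2's Wald test also called 0 in each of these 5. Shares of genes called, here and below, are at the adjusted threshold, so they give no background for counts at an unadjusted p. The share of all genes at an unadjusted p under 0.05 is not given here. Against SRF the share of all genes called was 1.36% for SRF-FOXO1, 0.782% for SRF-ICA1L, 0.146% for SRF-PDGFRB and 0.388% for SRF-RELA, with 1, 2, 0 and 1 members at an unadjusted p under 0.05. For SRF-PDGFRB it was 0.717% against SRF-FOXO1, 0.820% against SRF-ICA1L and 0.820% against the mean of the other 3 fusions, with 3, 5 and 5 members at an unadjusted p under 0.05, and 0.162% for SRF-RELA against SRF-PDGFRB, with 1. It was 0.0270% for SRF-ICA1L against SRF-FOXO1, 0.00539% for SRF-RELA against SRF-FOXO1 and 0.0108% for SRF-RELA against SRF-ICA1L, with 1 member (SPRED2, SRF-ICA1L against SRF-FOXO1) at an unadjusted p under 0.05. DESeq2 called DUSP5 in SRF-FOXO1 and in SRF-ICA1L against SRF, and DUSP4 in SRF-PDGFRB against SRF-FOXO1 and against the mean of the other 3 fusions. The share of all genes that DESeq2 called is not given here.

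Libraries with the same replicate number deviated together, so a fit with the number as a block was run beside it. The common coefficient of variation between libraries was 0.225 without the block and 0.150 with it. With the block, 2 of 10 members were called in SRF-FOXO1 against pMSCV (7.03% of all genes), 3 in SRF-ICA1L (4.66%), 1 in SRF-RELA (0.971%), 0 in SRF (0.243%) and 0 in SRF-PDGFRB (0.178%). At an unadjusted p under 0.05 SRF had 1 member and SRF-PDGFRB 0. Of these calls DUSP5 was higher in SRF-RELA, SRF-ICA1L and SRF-FOXO1, and SPRED1 was lower in SRF-FOXO1 and SRF-ICA1L, as was SPRY4 in SRF-ICA1L. The median log2 fold change of the 10 members with the block was -0.31 in SRF-FOXO1 and -0.35 in SRF-ICA1L, beside 0.01 and -0.01 over all tested genes. It was -0.16 in SRF and -0.20 in SRF-RELA, beside 0.00 and -0.01, and 0.05 in SRF-PDGFRB beside 0.00 over all genes. These 5 comparisons share the pMSCV libraries and are not independent of each other.

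**Figure D2:**
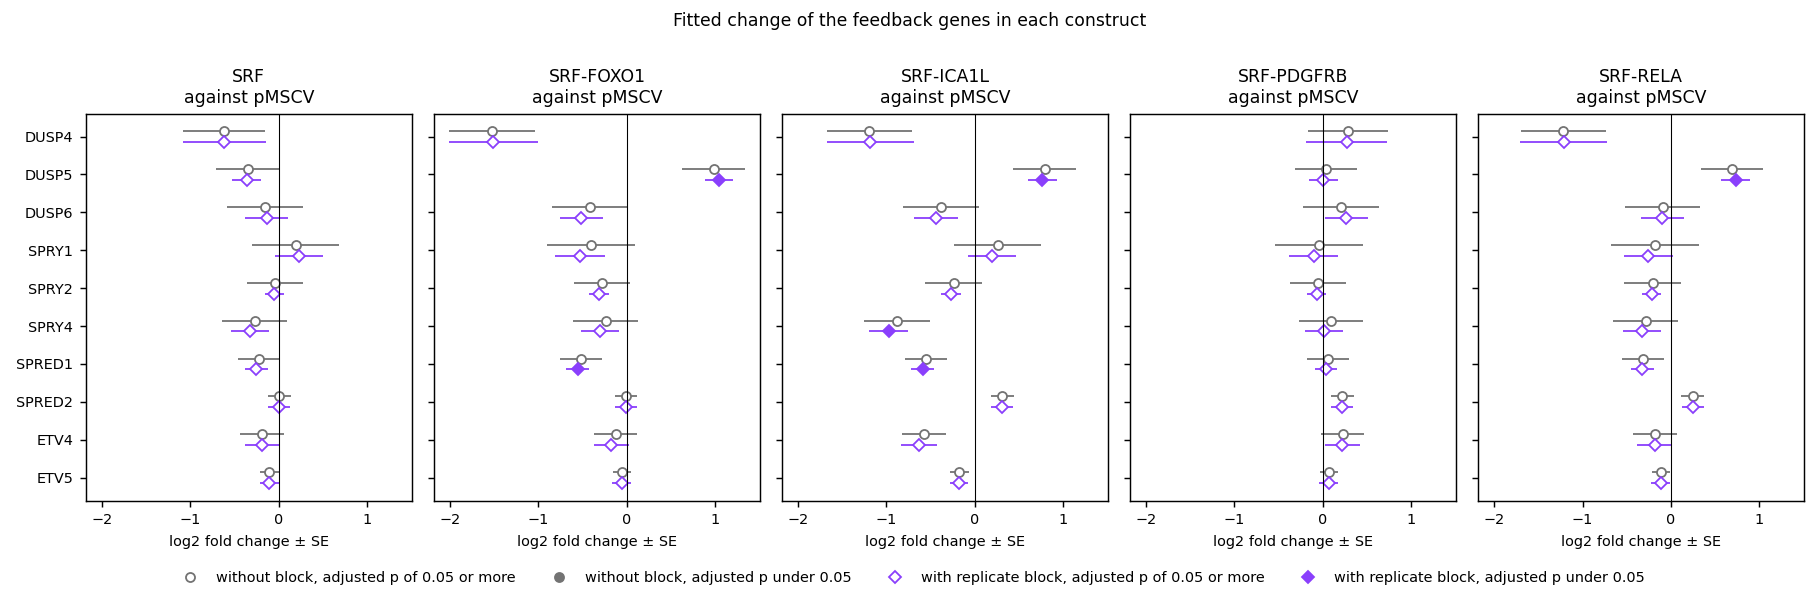
Log2 fold change against pMSCV with its standard error (horizontal lines) for the 10 genes in each construct, without the replicate block (circles) and with it (diamonds), filled where the adjusted p was under 0.05. No circle is filled, the filled diamonds are DUSP5, SPRY4 and SPRED1, and the lines of DUSP5 and SPRY2 are shorter with the block.

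DUSP5, the nuclear phosphatase of ERK, is the member with the clearest difference between constructs. The gene (ENSG00000138166) is on the plus strand at chr10:110497838-110511544 in GENCODE 29 on GRCh38, the annotation used for every position below. Libraries 1, 2 and 3 of pMSCV were at 34.9, 19.6 and 21.5 CPM, of SRF at 27.1, 13.8 and 17.4 CPM and of SRF-PDGFRB at 37.2, 15.2 and 25.9 CPM. The libraries labelled SRF-FOXO1 were at 55.1, 41.03 and 47.4 CPM, those of SRF-ICA1L at 59.2, 23.5 and 40.4 CPM and those of SRF-RELA at 45.9, 30.7 and 42.2 CPM. All 3 libraries labelled SRF-FOXO1 were above all 3 of pMSCV and of SRF, and the SRF-RELA libraries were above all 3 of SRF, while number 2 of SRF-ICA1L and of SRF-RELA lay within the range of pMSCV. By mean level the order ran from SRF-FOXO1 through SRF-ICA1L, then SRF-RELA, SRF-PDGFRB and pMSCV, to SRF, and no difference within the upper 3 or within the lower 3 was called with or without the block. With the block, DUSP5 missed the threshold in SRF against pMSCV at -0.36 (edgeR adjusted p 0.461, SE 0.16) and in SRF-PDGFRB against SRF at 0.36 (edgeR adjusted p 0.237, SE 0.16), both over 2 standard errors.

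Within each number, DUSP5 was higher than in the pMSCV library of the same number in 3 of 3 pairs for SRF-RELA, SRF-ICA1L and SRF-FOXO1, and lower in 3 of 3 pairs for SRF. Against pMSCV its log2 fold change was 0.99 (edgeR adjusted p 0.214, SE 0.36) in SRF-FOXO1, 0.79 in SRF-ICA1L with an edgeR adjusted p of 0.438, and 0.69 in SRF-RELA with an edgeR adjusted p of 1.0. With the block the values were 1.05 (edgeR adjusted p 0.00144, SE 0.16), 0.76 (edgeR adjusted p 0.0132, SE 0.16) and 0.73 (edgeR adjusted p 0.0419, SE 0.16), so these calls rest on treating the number as shared. Leaving out any of the 6 libraries kept the blocked call in SRF-FOXO1. In SRF-ICA1L it was lost without pMSCV replicate 3 (adjusted p 0.0858), SRF-ICA1L replicate 1 (0.0608) or SRF-ICA1L replicate 3 (0.0613). In SRF-RELA it was lost without pMSCV replicate 1, 2 or 3 (0.0881, 0.116 and 0.230) or SRF-RELA replicate 2 or 3 (0.249 and 0.188), so it held in 1 of 6.

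Against SRF the differences of DUSP5 were larger, at a log2 fold change of 1.34 (edgeR adjusted p 0.0843, SE 0.36) in SRF-FOXO1, 1.14 (edgeR adjusted p 0.191, SE 0.36) in SRF-ICA1L and 1.04 (edgeR adjusted p 0.363, SE 0.36) in SRF-RELA. Here 1 of 10 members was called with the block in SRF-ICA1L (4.73% of all genes) and 1 in SRF-RELA (1.73%), DUSP5 in both, at 1.12 with an edgeR adjusted p of 0.000984 and 1.09 with an edgeR adjusted p of 0.00245. Neither call was lost without any 1 of its 6 libraries. SRF RNA was higher in the SRF group than in each fusion, and its part in the comparisons against SRF was not tested. With the block, 0 of 10 members were called by edgeR in SRF-PDGFRB against SRF (2.34% of all genes), SRF-ICA1L against SRF-FOXO1 (0.911%), SRF-RELA against SRF-FOXO1 (0.167%) and SRF-RELA against SRF-ICA1L (0.0162%), with 2, 4, 0 and 2 at an unadjusted p under 0.05. In SRF-PDGFRB, DUSP5 was near the vector level, at a log2 fold change of 0.03 against pMSCV with a standard error of 0.36. Between fusions with the block, DUSP5 was lower in SRF-PDGFRB than in SRF-FOXO1, at a log2 fold change of -1.04 (edgeR adjusted p 0.00193, SE 0.16), and lower than in SRF-ICA1L, at -0.76 (edgeR adjusted p 0.0131, SE 0.16). It was higher in SRF-RELA than in SRF-PDGFRB, by 0.73 (edgeR adjusted p 0.0484, SE 0.16). The first of these held without any 1 of the 6 libraries. The second was lost without SRF-ICA1L replicate 1 or 3 (0.0640 and 0.0624) or SRF-PDGFRB replicate 2 or 3 (0.0924 and 0.0507), and the third held only without SRF-RELA replicate 1, with adjusted p values of 0.0777 to 0.333 without SRF-PDGFRB replicate 1, 2 or 3 or SRF-RELA replicate 2 or 3.

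**Figure D3:**
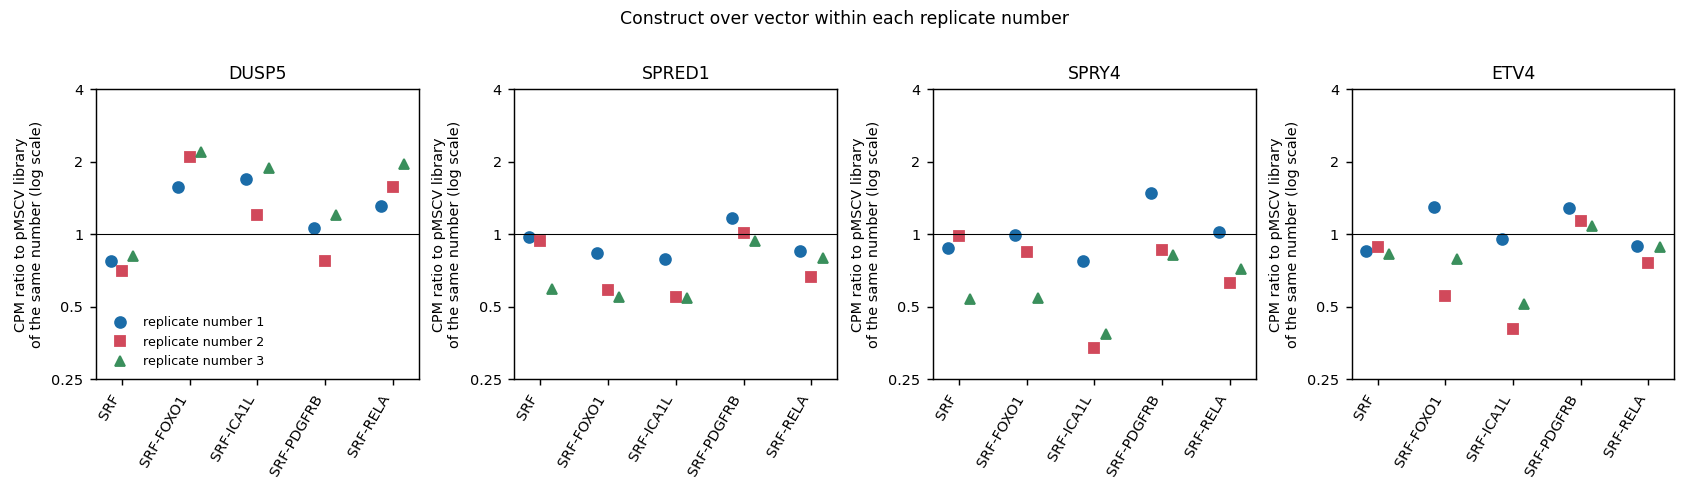
Ratio of CPM in each construct library to the pMSCV library of the same replicate number (log axis, 1 means equal) for DUSP5, SPRED1, SPRY4 and ETV4, with colour and shape for the number. All 9 DUSP5 points of SRF-RELA, SRF-ICA1L and SRF-FOXO1 lie above 1 and all 3 of SRF below 1, and the SPRED1 points of SRF-FOXO1 and SRF-ICA1L lie below 1.

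DUSP6, the cytoplasmic phosphatase of ERK and a standard readout of FGF signalling, was the most abundant member, and was called between replicate numbers and not between constructs. The gene (ENSG00000139318) is on the minus strand at chr12:89347232-89353271. It was at 201, 130.2 and 251 CPM in pMSCV, 173, 127 and 210.3 CPM in SRF and 222, 189 and 263 CPM in SRF-PDGFRB. It was at 226, 54.3 and 142 CPM in libraries labelled SRF-FOXO1, 214, 71.6 and 130.4 CPM in SRF-ICA1L and 198, 113 and 216 CPM in SRF-RELA. Number 2 was the lowest library of every group, and the ranges of every pair of groups overlapped. The number 2 library was at 0.296 of the mean of the other two in SRF-FOXO1 and 0.415 in SRF-ICA1L, against 0.545 to 0.778 in the other 4 groups, and this difference between groups was not tested. SRF-PDGFRB had the highest mean and all 3 of its libraries were above the pMSCV library of the same number, with a log2 fold change of 0.21 (edgeR adjusted p 1.0, SE 0.43). An antisense transcript, AC024909.2, overlaps 1875 exonic bases of DUSP6 but had 15 to 150 counts per library, against 1387 to 7248 for DUSP6.

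DUSP4, the other nuclear phosphatase, was barely expressed. The gene (ENSG00000120875) is on the minus strand at chr8:29333064-29350668. Its level was 1.98, 2.75 and 3.32 CPM in pMSCV, 0.853, 2.37 and 1.91 CPM in SRF and 3.76, 1.201 and 5.01 CPM in SRF-PDGFRB. It was 1.24, 0.822 and 0.555 CPM in libraries labelled SRF-FOXO1, 1.47, 1.22 and 0.543 CPM in SRF-ICA1L and 1.15, 1.16 and 1.003 CPM in SRF-RELA, so these 9 libraries were all below the 3 of pMSCV. SRF-PDGFRB held the 2 highest libraries of the 18, numbers 1 and 3, while its number 2 lay among the low fusions. Against the mean of the other 3 fusions the log2 fold change in SRF-PDGFRB was 1.60 (edgeR adjusted p 0.0519, SE 0.36), and with the block 1.57 (edgeR adjusted p 0.0294, SE 0.38). Without the block, the adjusted p was 0.0335 without SRF-FOXO1 replicate 1 and 0.0151 without SRF-PDGFRB replicate 2. With the block, the call was lost without SRF-PDGFRB replicate 1 (0.178) or 3 (0.276), SRF-FOXO1 replicate 3 (0.0553) or SRF-RELA replicate 3 (0.0554). Against pMSCV, DUSP4 had the largest fitted differences of any member, from -1.52 in SRF-FOXO1 (edgeR adjusted p 0.164) to 0.29 in SRF-PDGFRB, none of them called.

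The Sprouty genes had different profiles over the libraries. SPRY2 (ENSG00000136158, minus strand, chr13:80335976-80340951) is the Sprouty best known as an inhibitor of FGF receptor signalling, and of the 3 it had the narrowest range of fitted differences from pMSCV. It was at 29.9, 19.8 and 22.4 CPM in pMSCV, 29.6, 18.6 and 20.4 CPM in SRF and 29.3, 16.6 and 23.8 CPM in SRF-PDGFRB. It was at 27.2, 11.6 and 18.2 CPM in libraries labelled SRF-FOXO1, 27.5, 14.03 and 15.4 CPM in SRF-ICA1L and 26.3, 14.7 and 19.5 CPM in SRF-RELA. In all 6 groups number 1 was the highest and number 2 the lowest, and the 6 number 1 libraries, at 26.3 to 29.9 CPM, were above the other 12. Against pMSCV its log2 fold change ran from -0.28 in SRF-FOXO1 to -0.04 in SRF, none called with or without the block.

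SPRY4 (ENSG00000187678, minus strand, chr5:142310427-142326455), which also restrains the step from receptor to RAF, was lowest in SRF-ICA1L. Its levels were 29.2, 29.3 and 26.4 CPM in pMSCV, 25.7, 28.995 and 14.3 CPM in SRF and 43.4, 25.4 and 21.8 CPM in SRF-PDGFRB. They were 28.95, 24.7 and 14.4 CPM in libraries labelled SRF-FOXO1, 22.8, 9.898 and 10.2 CPM in SRF-ICA1L and 29.9, 18.4 and 18.97 CPM in SRF-RELA. The 3 SRF-ICA1L libraries were all below the 3 of pMSCV, and numbers 2 and 3 of SRF-ICA1L were the 2 lowest of the 18. The log2 fold change in SRF-ICA1L against pMSCV was -0.88 (edgeR adjusted p 0.403, SE 0.37) without the block and -0.97 (edgeR adjusted p 0.02, SE 0.22) with it. The blocked call was lost without pMSCV replicate 2 (0.0548) or 3 (0.101) or SRF-ICA1L replicate 2 (0.137) or 3 (0.0856). SRF-PDGFRB had the highest mean, through its number 1, and was above SRF-ICA1L by a log2 fold change of 0.99 (edgeR adjusted p 0.0177, SE 0.22) with the block, a call lost without SRF-ICA1L replicate 2 (0.116) or 3 (0.0742) or SRF-PDGFRB replicate 1 (0.0831) or 3 (0.0550).

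SPRY1 (ENSG00000164056, plus strand, chr4:123396795-123403760), the third Sprouty, was the one member called higher in number 3 than in number 1. It was at 7.29, 8.64 and 11.9 CPM in pMSCV, 8.49, 11.3 and 11.3 CPM in SRF and 4.53, 9.34 and 13.4 CPM in SRF-PDGFRB. It was at 3.66, 4.502 and 11.9 CPM in libraries labelled SRF-FOXO1, 7.29, 7.57 and 16.3 CPM in SRF-ICA1L and 6.71, 3.93 and 13.3 CPM in SRF-RELA. Number 3 was above number 1 in all 6 groups and the ranges of all groups overlapped. Between constructs its log2 fold change against pMSCV ran from -0.41 in SRF-FOXO1 to 0.26 in SRF-ICA1L, with standard errors of 0.49 to 0.50, and none was called.

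SPRED1 (ENSG00000166068, plus strand, chr15:38252326-38357249), a Spred protein gene, was lower in 2 of the fusions. Its levels were 135, 117 and 125 CPM in pMSCV, 131, 109.6 and 74.2 CPM in SRF and 157, 118 and 117 CPM in SRF-PDGFRB. They were 113, 68.4 and 68.7 CPM in libraries labelled SRF-FOXO1, 106, 64.2 and 67.8 CPM in SRF-ICA1L and 115, 77.7 and 99.5 CPM in SRF-RELA. The 9 libraries of these 3 fusions were all below the 3 of pMSCV and the 3 of SRF-PDGFRB. The order of means was SRF-PDGFRB, pMSCV, SRF, SRF-RELA, SRF-FOXO1 and SRF-ICA1L, and no 2 neighbours in it were called different with or without the block. Against pMSCV the log2 fold change was -0.52 (edgeR adjusted p 0.316, SE 0.24) in SRF-FOXO1 and -0.55 (edgeR adjusted p 0.41, SE 0.24) in SRF-ICA1L, and with the block -0.55 (edgeR adjusted p 0.0183, SE 0.13) and -0.59 (edgeR adjusted p 0.0175, SE 0.13). The first blocked call was lost without pMSCV replicate 3 (0.0977) or SRF-FOXO1 replicate 2 (0.0825) or 3 (0.0649). The second was lost without pMSCV replicate 2 (0.0543) or 3 (0.0967) or SRF-ICA1L replicate 2 (0.118) or 3 (0.0885). In SRF-RELA the difference from pMSCV was -0.33 (edgeR adjusted p 0.46, SE 0.13) with the block, in the same direction and not called.

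Between the fusions, SPRED1 in SRF-PDGFRB exceeded its level in SRF-FOXO1 by a log2 fold change of 0.59 (edgeR adjusted p 0.0184, SE 0.13), that in SRF-ICA1L by 0.62 (edgeR adjusted p 0.0119, SE 0.13) and the mean of the other 3 by 0.52 (edgeR adjusted p 0.00842, SE 0.10), each with the block. The first call was lost without SRF-FOXO1 replicate 2 (0.0864) or 3 (0.0618) or SRF-PDGFRB replicate 2 (0.0782) or 3 (0.0720), and the second without SRF-ICA1L replicate 2 (0.0843) or 3 (0.0666) or SRF-PDGFRB replicate 2 (0.0534). The third was lost without SRF-PDGFRB replicate 2 (0.0672) or 3 (0.0610). SPRED2 (ENSG00000198369, minus strand, chr2:65310851-65432637), the other Spred, varied little: its 18 libraries ran from 69.3 CPM in SRF replicate 3 to 111 CPM in SRF-RELA replicate 3. All 3 SRF-ICA1L libraries were above all 3 of pMSCV, with a log2 fold change of 0.31 (edgeR adjusted p 0.382, SE 0.13), and none of its comparisons of groups was called.

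ETV4 (ENSG00000175832, minus strand, chr17:43527844-43579620), an ETS factor induced by FGF, was even in the vector, SRF, SRF-PDGFRB and SRF-RELA groups and uneven in SRF-FOXO1 and SRF-ICA1L. It was at 46.4, 47.1 and 48.9 CPM in pMSCV, 39.6, 41.9 and 40.8 CPM in SRF, 59.9, 53.7 and 53.1 CPM in SRF-PDGFRB and 41.6, 35.9 and 43.6 CPM in SRF-RELA. It was at 60.4, 26.2 and 38.6 CPM in libraries labelled SRF-FOXO1 and 44.5, 19.1 and 25.2 CPM in SRF-ICA1L. Every SRF-PDGFRB library was above every pMSCV library, and every library of SRF, SRF-ICA1L and SRF-RELA was below every pMSCV library. The number 2 library was at 0.529 of the mean of the other two in SRF-FOXO1 and 0.549 in SRF-ICA1L, against 0.844 to 1.04 in the other 4 groups, and this difference was not tested. Against pMSCV the log2 fold change was 0.23 (edgeR adjusted p 1.0, SE 0.25) in SRF-PDGFRB and -0.58 (edgeR adjusted p 0.41, SE 0.25) in SRF-ICA1L, and SRF-PDGFRB was above SRF-ICA1L by 0.80 (edgeR adjusted p 0.171, SE 0.25) without the block and 0.85 (edgeR adjusted p 0.0247, SE 0.20) with it. Without SRF-ICA1L replicate 1, its highest library, both comparisons with SRF-ICA1L were called without the block, at -0.98 (edgeR adjusted p 0.0465) against pMSCV and 1.21 (edgeR adjusted p 0.0194) for SRF-PDGFRB. The blocked call was lost without SRF-ICA1L replicate 2 (0.161) or 3 (0.120) or SRF-PDGFRB replicate 2 (0.118) or 3 (0.0701). DHX8, on the other strand, shares 68 exonic bases with ETV4 and had 1850 to 2903 counts per library.

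ETV5 (ENSG00000244405, minus strand, chr3:186046308-186110318), the closest relative of ETV4 among the members, was nearly flat, from 44.9 CPM in SRF-ICA1L replicate 2 to 72.8 CPM in pMSCV replicate 2. Its order of means was the same as that of ETV4, from SRF-PDGFRB and pMSCV down to SRF-RELA and SRF-ICA1L. All 3 SRF-ICA1L libraries were below all 3 of pMSCV, with a log2 fold change of -0.17 (edgeR adjusted p 0.601, SE 0.10), and none of its comparisons of groups was called. ETV5 shares 164 exonic bases with DGKG on the same strand, which had 16 to 109 counts per library.

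Counted by overlap in CPM, without TMM factors, SRF-ICA1L stood furthest from pMSCV. On this scale more of all tested genes lay wholly below pMSCV than above it in SRF-ICA1L (16.0% and 5.69%). The same held in SRF-FOXO1 (13.5% and 6.41%) and SRF-RELA (9.66% and 5.20%). The part of the scaling in the members' counts was not tested. In it 5 of 10 members (DUSP4, SPRY4, SPRED1, ETV4 and ETV5) had all 3 libraries below all 3 of pMSCV, which 16.0% of all tested genes did, and 1 (SPRED2) had all 3 above (5.69%). In SRF-RELA 3 members (DUSP4, SPRED1, ETV4) were wholly below (9.66%), and in SRF-FOXO1 2 were wholly below (DUSP4, SPRED1, 13.5%) and DUSP5 wholly above (6.41%). In SRF-PDGFRB only ETV4 was free of overlap with pMSCV, above it (5.12%), and in SRF only ETV4, below it (6.09%). Set against SRF-ICA1L, SRF-PDGFRB had SPRED1, ETV4 and ETV5 wholly above (3 of 10, with 18.2% of all genes). With the block, 4 of 10 members were called between these 2 fusions (4.76% of all genes), SPRY4, SPRED1 and ETV4 higher and DUSP5 lower in SRF-PDGFRB. Against SRF-FOXO1, 2 were called (4.35%), SPRED1 higher and DUSP5 lower, against the mean of the other 3 fusions 3 (4.15%), with DUSP4 added as higher, and in SRF-RELA against SRF-PDGFRB 1 (0.847%). In each of these comparisons between fusions where SPRED1 was called, DUSP5 was called in the opposite direction.

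The replicate numbers were then compared as a factor beside the group, over 6 libraries for each number. The labels give the numbers and not what they mark. The comparison was chosen because earlier results of these data showed that libraries with the same number deviate together, so its p-values are not independent of that choice. In number 2 against the mean of numbers 1 and 3, 3 of 10 members were called and all 3 fell, with 12.7% of all tested genes called. The log2 fold change was -0.87 (edgeR adjusted p 0.00307, SE 0.16) for DUSP6, -0.62 (edgeR adjusted p 0.00138, SE 0.10) for DUSP5 and -0.54 (edgeR adjusted p 0.00017, SE 0.07) for SPRY2. By level, the 6 number 2 libraries had a lowest, median and highest DUSP6 of 54.3, 119.98 and 189 CPM, against 173, 208 and 226 CPM in number 1 and 130.4, 213 and 263 CPM in number 3. SPRY2 had 11.6, 15.7 and 19.8 CPM in number 2, against 26.3, 28.4 and 29.9 CPM in number 1. In number 1 against number 3, 5 of 10 members were called with 16.0% of all genes: SPRY4 at 0.82 (edgeR adjusted p 0.00214, SE 0.15), SPRY2 at 0.54 (edgeR adjusted p 0.000266, SE 0.08), SPRED1 at 0.50 (edgeR adjusted p 0.00164, SE 0.09) and DUSP5 at 0.49 (edgeR adjusted p 0.00829, SE 0.11) were higher in number 1, and SPRY1, at -1.07 (edgeR adjusted p 0.00195, SE 0.20), was higher in number 3. Each of these 8 calls held in all 18 fits that left out 1 library. DUSP4, SPRED2, ETV4 and ETV5 were called in neither comparison of numbers.

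**Figure D4:**
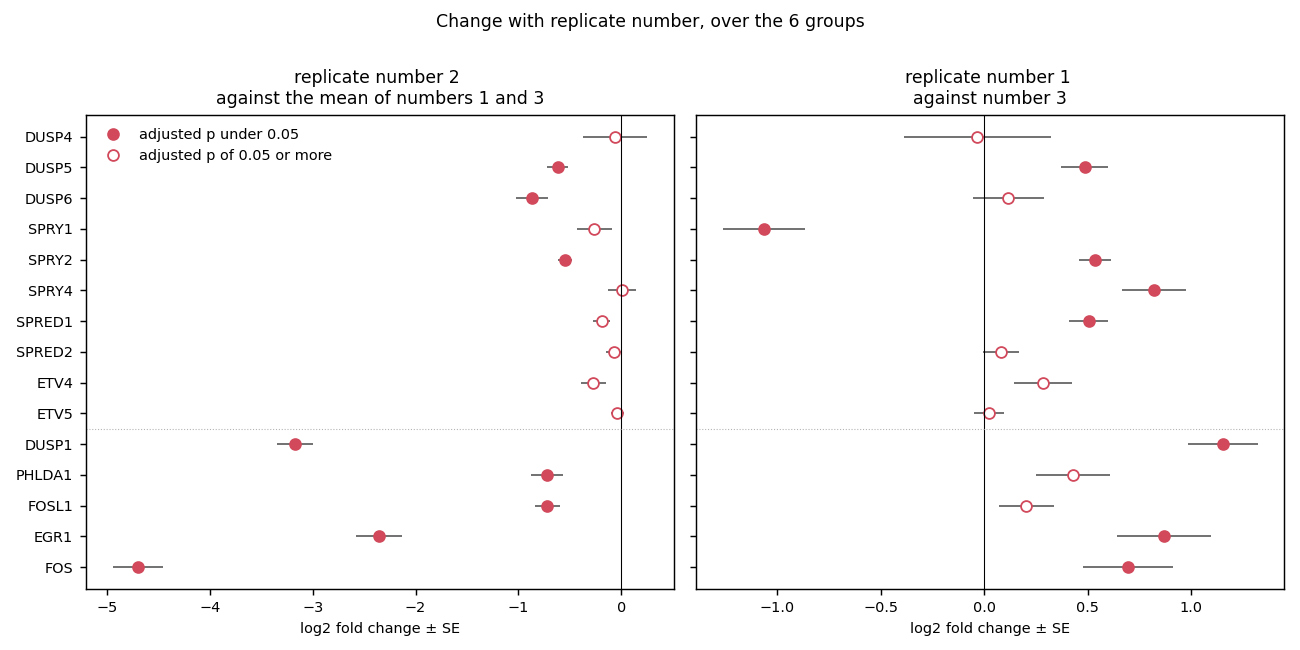
Log2 fold change with its standard error between replicate numbers for the 10 genes (above the dotted line) and for DUSP1, PHLDA1, FOSL1, EGR1 and FOS (below it), filled where the adjusted p was under 0.05. Left, number 2 against numbers 1 and 3, where FOS, EGR1 and DUSP1 fell further than any of the 10 genes, and right, number 1 against 3, with its own scale, where SPRY1 stands alone on the negative side among filled points.

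Other genes of the pathway moved with the number as well, and their part in the values of the 10 genes was not tested. Of 20 other transcripts that follow ERK, all tested, 8 fell in number 2 and 0 rose, where 5.38% of all genes fell and 7.32% rose, and their median log2 fold change was -0.25, beside 0.00 over all genes. FOS, an immediate early gene that SRF controls, fell, with a log2 fold change of -4.70 (edgeR adjusted p 7.48e-08, SE 0.25), from 449 to 1114 CPM in number 1 and 381 to 631 CPM in number 3 to 12.1 to 34.4 CPM in number 2. The log2 fold change of EGR1, another immediate early gene, was -2.35 (edgeR adjusted p 2.25e-05, SE 0.22), that of HMGA2, a chromatin protein, -0.78 (edgeR adjusted p 0.00154, SE 0.13), and that of FOSL1, an AP-1 subunit, -0.72 (edgeR adjusted p 0.00154, SE 0.12). Of 18 tested genes among 19 other feedback inhibitors, 2 fell and 2 rose in number 2. DUSP1, an early phosphatase of the MAP kinases, was at 12.3 to 26.0 CPM in number 2 and at least 91.2 CPM in every other library, a log2 fold change of -3.17 (edgeR adjusted p 8e-08, SE 0.17). PHLDA1, a pleckstrin homology domain protein, had a log2 fold change of -0.72 (edgeR adjusted p 0.00907, SE 0.16). Among the ligands and receptors, 6 of 23 tested rose and 2 fell, with PDGFD, a ligand of PDGFRB, highest at 1.26 (edgeR adjusted p 2.09e-05, SE 0.13), while HGF, a ligand of MET, was lower, at -0.79 (edgeR adjusted p 0.00716, SE 0.16). The core cascade list of 26 genes runs from receptor adaptors through RAS and ERK to ELK factors. Of these genes, 2 rose (SHC1 and KSR1, adaptors of the receptor and of RAF) and 0 fell, a count near the share over all genes.

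In number 1 against number 3, 9 of the 20 other transcripts were higher and 1 lower, beside 7.84% and 8.16% of all genes, with a median of 0.35. SPHK1, sphingosine kinase, was higher by 0.78 (edgeR adjusted p 1.03e-05, SE 0.07), and EPHA2, a receptor of ephrins, was lower, at -0.62 (edgeR adjusted p 0.00679, SE 0.14). Of the 18 other inhibitors 3 were higher and 1 lower, of the 23 ligands and receptors 1 and 5, and of the 26 core genes 3 and 3. MRAS, a relative of RAS, was the core gene with the largest difference, at 0.83 (edgeR adjusted p 1.56e-05, SE 0.08).

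Between constructs, the other pathway genes gave few calls without the block. In the libraries labelled SRF-FOXO1 against pMSCV, 1 of 20 other ERK transcripts, 2 of 23 ligands and receptors and 1 of 26 core genes were called, all higher, beside 0.928% of all genes in either direction. HBEGF, an EGF family ligand, was at 25.2, 36.4 and 22.2 CPM there and 9.84, 8.85 and 12.6 CPM in pMSCV, a log2 fold change of 1.51 (edgeR adjusted p 0.0187, SE 0.27). FGF1, a ligand of all FGF receptors, was at 28.4, 65.8 and 34.7 CPM and 7.26, 8.94 and 6.82 CPM, a log2 fold change of 2.59 (edgeR adjusted p 0.00625, SE 0.37). HRAS was higher by 0.60 (edgeR adjusted p 0.043, SE 0.13). PDGFB, a ligand of PDGFRB, had at most 1 count in any pMSCV library and was at 5.64, 22.8 and 10.4 CPM in libraries labelled SRF-FOXO1 and 1.38, 3.96 and 4.89 CPM in SRF-RELA, called in both. DUSP2, an inducible nuclear phosphatase of ERK, had at most 3 counts in any pMSCV library and was at 6.61, 5.24 and 7.26 CPM in SRF-ICA1L and 2.399, 5.36 and 3.22 CPM in SRF-RELA, called in both. DUSP2 lies outside the rule by which genes were named and was chosen after its values were seen.

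With the block, 5 of 18 other inhibitors were called in SRF-FOXO1 against pMSCV (2 higher, 3 lower) and 4 in SRF-ICA1L (2 and 2), beside 4.65% of all genes higher and 2.38% lower in the first and 3.26% and 1.40% in the second. ERRFI1, an inhibitor of the EGF receptor, was higher in both, by 1.05 (edgeR adjusted p 0.0173, SE 0.24) and 0.88 (edgeR adjusted p 0.0493, SE 0.24), while PHLDA1 was lower in both, at -0.89 (edgeR adjusted p 0.0455, SE 0.25) and -1.02 (edgeR adjusted p 0.0323, SE 0.25). Of the 20 other ERK transcripts, 5 were called in SRF-ICA1L, HBEGF higher and ETV1, FOSL1, PLAUR and HMGA2 lower. ETV1, the third ETS factor of the ETV4 and ETV5 family, was at -0.66 (edgeR adjusted p 0.0157, SE 0.14) in SRF-ICA1L and -0.80 (edgeR adjusted p 0.004, SE 0.14) in SRF-FOXO1, and FOSL1 at -1.16 (edgeR adjusted p 0.00279, SE 0.19) in SRF-ICA1L. Of the 23 ligands and receptors, 4 were higher and 1 lower in SRF-FOXO1, and 3 and 2 in SRF-ICA1L. In SRF-FOXO1 PDGFA was at 1.28 (edgeR adjusted p 0.000811, SE 0.18) and PDGFRA at -1.26 (edgeR adjusted p 0.00882, SE 0.25). MET was at -0.77 (edgeR adjusted p 0.0167, SE 0.17) in SRF-ICA1L. In SRF-PDGFRB against pMSCV edgeR called 0 genes of the 4 lists with or without the block, with 0 of 18 other inhibitors, 1 of 20 other ERK transcripts, 4 of 23 ligands and receptors and 0 of 26 core genes at an unadjusted p under 0.05 without it. PDGFRB was at 929.7, 526 and 673 CPM in SRF-PDGFRB and 502, 392 and 381 CPM in pMSCV, and its log2 fold change against the mean of the other 3 fusions was 0.66 (edgeR adjusted p 0.108, SE 0.18) without the block and 0.64 (edgeR adjusted p 0.0213, SE 0.15) with it. In that comparison with the block, 3 of 20 other ERK transcripts were higher (FOSL1, PLAUR and HMGA2) and 0 lower. Of the 18 other inhibitors 1 (SH2B3) was higher and 2 lower, of the 23 ligands and receptors 1 and 3, and of the 26 core genes 0 and 1. Over all genes 1.53% were higher and 2.63% lower. CCND1, the cyclin that ERK activity raises in dividing cells, was at 303, 278 and 301 CPM in SRF-PDGFRB and 192, 304 and 174 CPM in pMSCV, and was called in no comparison with pMSCV.

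The profiles of the members over the 18 libraries were compared by the root mean square distance between log2 CPM values, each gene centred on its own mean, as a description over libraries that share groups, numbers and depth. The members closest to each other were SPRED2 and ETV5 at 0.21, the 2 flattest, then SPRY2 and SPRED1 at 0.25 and SPRED1 and ETV4 at 0.26. Neighbours outside the list were named for the 5 members whose standard deviation was at least 0.5. For DUSP5 they were CCN2 at 0.33, KLF2 at 0.37 and NES at 0.38. CCN2, a matricellular protein, was at 785, 779.9 and 643 CPM in libraries labelled SRF-FOXO1 and 569.97, 264 and 317 CPM in pMSCV. For DUSP6 they were EMP1, BCAN-AS1 and HERC5, each at 0.25, for SPRY4 SCG5 at 0.24, RASSF8 at 0.28 and PCDHB6 at 0.29, for SPRY1 EML4 at 0.27, GALNT7-DT at 0.31 and HHAT at 0.33, and for DUSP4, with few counts, CYP39A1 at 0.49, C15orf62 at 0.50 and PTCHD4 at 0.50.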

How the data were processed

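RNA-seq counts of 18 libraries in 6 groups of 3 were used. Stranded mRNA libraries were sequenced on an Illumina NovaSeq instrument, per the labels' protocols. The submitters' processing notes name FastQC 0.11.8, Trimmomatic 0.39, HISAT2, featureCounts, Subread 2.0.3 and GRCh38. Which annotation release was counted, and whether counting used strand, is not given in the sources used here, so reads of overlapping genes could have been assigned to either. The authors deposited raw counts per Ensembl gene, without normalization, per the file headers. Symbols were matched for 61369 of 61487 identifiers.

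CPM are counts over a library's total, without TMM factors. Tests used edgeR 4.0.16 in R 4.3.3: filterByExpr with a minimum count of 10 (18544 genes), TMM scaling, robust quasi-likelihood fits over all 18 libraries with 12 residual degrees of freedom, two-sided F tests and Benjamini-Hochberg adjustment over all tested genes. A standard error is the log2 fold change divided by the root of F. Genes were called at an adjusted p under 0.05. The replicate number was a block in an alternative fit (10 residual degrees of freedom) and a factor beside the group for the comparisons of numbers. Among the 45 same-number pairs across groups, 44 had a correlation of their deviations over 0.1 (median 0.375, against -0.18 for different numbers). Replicate 1 of SRF and SRF-FOXO1 gave 0.0875, so the blocked value of that comparison stands only with the alternatives. The pairing is read from the values, not the labels. Scripts were tested on simulated data.

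The members and gene lists were chosen with earlier results of these data known. Besides the members, DUSP1, PHLDA1, CCND1, EPHA2, FOS, EGR1 and PDGFRB were always named, and up to 4 called genes per list and comparison, largest change first, from a mean log2 CPM of 1 upwards. Alternatives were other scalings, filters, DESeq2 1.42.0, a minimum fold, fewer groups, the block, leaving out each library, and, chosen after seeing the data, a correction for exonic length. Positions come from GENCODE 29 and promoters from RefSeq. The list of blood cell markers is not reported here.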

Additional observations from a re-analysis of the deposited data

Results flagged for a closer look

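Members whose libraries all moved one way from pMSCV in one construct and all the other way in another, within each replicate number, were looked at again. DUSP5 was above the pMSCV library of its number in 3 of 3 pairs in SRF-RELA, SRF-ICA1L and SRF-FOXO1 and below it in 3 of 3 pairs in SRF. The log2 difference from SRF was 1.34 in SRF-FOXO1 (edgeR adjusted p 0.0843), 1.14 in SRF-ICA1L (0.191) and 1.04 in SRF-RELA (0.363), each a test of the difference itself. With the replicate number as a block these edgeR adjusted p values were 0.000196, 0.000984 and 0.00245, so each was called. DUSP6 was above pMSCV in 3 of 3 pairs in SRF-PDGFRB and below it in 3 of 3 in SRF and SRF-RELA. Its log2 difference was 0.36 between SRF-PDGFRB and SRF (edgeR adjusted p 0.766) and 0.30 between SRF-PDGFRB and SRF-RELA (1.0), neither called with or without the block. ETV4 was above pMSCV in 3 of 3 pairs in SRF-PDGFRB and below it in 3 of 3 in SRF, SRF-ICA1L and SRF-RELA. SRF-PDGFRB was higher by a log2 difference of 0.41 than SRF (edgeR adjusted p 0.525), 0.80 than SRF-ICA1L (0.171) and 0.41 than SRF-RELA (1.0). With the block only the difference from SRF-ICA1L was called, at an edgeR adjusted p of 0.0247. In SRF, 8 of 10 members were below pMSCV in 3 of 3 pairs, all but SPRY1 and SPRED2, so this side of the patterns was not particular to these genes. The share of all genes below in 3 of 3 pairs is not given here. All of these patterns share the same 3 pMSCV libraries, and they were picked among 10 genes and 10 pairs of constructs.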

How the results depend on the processing

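With the replicate number as a block, the count of members called went from 0 to 2 in SRF-FOXO1, 3 in SRF-ICA1L and 1 in SRF-RELA against pMSCV, to 1 each in SRF-RELA, SRF-ICA1L and SRF-FOXO1 against SRF, to 2 in SRF-PDGFRB against SRF-FOXO1, 4 against SRF-ICA1L and 3 against the mean of the other 3 fusions, and to 1 in SRF-RELA against SRF-PDGFRB. In the other 6 comparisons of groups the block changed no call. In SRF-FOXO1 against SRF, whose replicate 1 pair missed the limit, the blocked call was DUSP5 at 1.41 (edgeR adjusted p 0.000196, SE 0.16), with 7.23% of all genes called. With the length correction and the replicate block the counts were 3, 3 and 0 against pMSCV in the same order, 1, 1 and 1 against SRF, 2, 4 and 4 for SRF-PDGFRB and 0 for SRF-RELA against SRF-PDGFRB. SPRY2 was added in SRF-FOXO1, ETV4 against the mean of the other 3 fusions, and DUSP5 was lost in SRF-RELA. DESeq2's Wald test called 1 in SRF-FOXO1 against SRF, 1 in SRF-ICA1L against SRF, 1 in SRF-PDGFRB against SRF-FOXO1 and 1 against the mean of the other 3 fusions. Scaling by total count and no count filter each called 1 (DUSP4) in the last. The shares of all genes called under these settings are not given here, so added calls cannot be told apart from more calls over all genes. A minimum absolute log2 fold change of 1 left 0 members for number 2 and 1 (SPRY1) for number 1 against number 3. Leaving out each library in turn gave 0 to 1 for SRF-ICA1L against pMSCV and for SRF-PDGFRB against SRF-ICA1L (ETV4, without SRF-ICA1L replicate 1), 0 to 1 for SRF-PDGFRB against the mean of the other 3 fusions (DUSP4), and 0 in the other comparisons of groups. The cause of these changes was not tested. Other settings kept the counts within 1.5 times. Single genes were followed only in comparisons where the main unadjusted p or the blocked adjusted p was under 0.05, both by edgeR. These values under the alternatives were set against the main fit, for groups the one without the block. Of them, 856 stayed on their side of the threshold, 136 became called, 7 (all under the minimum fold) lost their call and 0 reversed. The main fit called 0 members between groups, so only calls between replicate numbers could be lost. A blocked call lost without 1 library is counted as staying, and the same call can be counted as added under several settings. A reversal was unlikely among values picked in this way, and the members' other comparisons are not covered. Total-count scaling moved the median of all genes by over 0.1 only in SRF-ICA1L against pMSCV (-0.12) and SRF-PDGFRB against SRF-ICA1L (0.11). DUSP4, with 12 to 108 counts per library, is the member whose precision depth limits most.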
